A study of Mus musculus with 12 samples.

Results

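The 9 genes described here encode transcription factors of the skeletal muscle programme. They are the basic helix-loop-helix (bHLH) activators Myf5, Myod1 and Myog, the MADS-box factors Mef2a, Mef2c and Mef2d, the paired-box factors Pax7 and Pax3, and the bHLH repressor Msc (musculin). They were chosen by name among 53801 gene identifiers, with earlier results of these data known. All 9 passed the filter on low counts, which left 15828 genes for testing. Messenger RNA of C2C12 cells, a mouse myoblast line able to fuse into myotubes, was sequenced in 12 libraries. The Sh2-Thap group held cells with Cebpg knocked down that received thapsigargin (Thap) for 6 h, and the Ctrl-Thap group held control cells given the same. The Sh2-DMSO group held knockdown cells given the solvent DMSO for 6 h, and the Ctrl-DMSO group held control cells in DMSO. Each group had 3 libraries, replicates 1 to 3. Thapsigargin blocks the calcium pump of the endoplasmic reticulum (ER) and so causes ER stress, and Cebpg encodes a leucine zipper partner of the stress factor ATF4. The knockdown carries the single label Sh2 and the construct in control cells is not named in the labels, so the loss of Cebpg, off-target action of the construct and any other stable difference between the cell lines cannot be told apart. HeLa, a human line, is named in the growth protocol, while the source and cell line fields name C2C12. The labels do not say whether replicates were separate cultures, and the p-values then reflect the spread among libraries alone, which may be technical.

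As background, Myf5 and MyoD commit cells to the muscle lineage and myogenin, the product of Myog, drives their terminal differentiation. These activators bind E-box DNA as dimers with the widely expressed E proteins, and MEF2 proteins bind A/T-rich sites beside them and strengthen activation. Pax3 and Pax7 mark muscle progenitors and satellite cells, the stem cells of muscle, while musculin occupies E-boxes as a repressor. In growing C2C12 myoblasts Myf5 and MyoD are already made, and myogenin normally follows when serum is withdrawn.

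The libraries held 29.4 to 47.7 M reads assigned to genes. Levels are counts per M gene reads scaled by TMM (CPM) and are given for replicates 1, 2 and 3 in that order. Tests are edgeR's quasi-likelihood F test, with Benjamini-Hochberg adjustment over all genes tested and a call at an adjusted p under 0.05. Cebpg itself was at 5.66 ± 0.419 CPM in Sh2-Thap libraries and 215.6 ± 3.96 CPM in Ctrl-Thap libraries (SD, n = 3 each), and at 4.51 ± 0.722 CPM in Sh2-DMSO libraries and 54.6 ± 5.2 CPM in Ctrl-DMSO libraries. The 8 myoblast markers, Myod1 and Myf5 among them, summed to 2028.9 to 2121.3 CPM in Sh2-Thap and 2109.6 to 2186.3 CPM in Ctrl-Thap libraries. They summed to 2200.0 to 2321.5 CPM in Sh2-DMSO and 2619.4 to 2844.8 CPM in Ctrl-DMSO libraries, and none was at 0 reads. Myf5 averaged 416.4, 251.6, 73.6 and 61.8 CPM of these sums in the same order. The summed level of the other markers thus fell further with thapsigargin than the full sums show. The 7 markers of differentiated muscle, Myog among them, summed to 4.77 to 5.0, 12.7 to 14.2, 3.78 to 4.57 and 9.59 to 13.0 CPM in the same order of groups. Myog averaged 1.13, 7.01, 0.661 and 4.37 CPM of these sums, so they partly repeat a member. On the means, the other markers together were not higher in Ctrl-Thap than in Ctrl-DMSO libraries. Markers of cell types foreign to the line were low, but their summed levels differed between the groups. The 5 epithelial markers summed to 7.2 to 8.49 CPM in Sh2-Thap, 2.99 to 3.57 CPM in Ctrl-Thap, 1.09 to 1.13 CPM in Sh2-DMSO and 0.318 to 0.43 CPM in Ctrl-DMSO libraries, and the 5 endothelial markers to 7.88 to 8.46, 5.57 to 7.33, 1.03 to 1.39 and 0.687 to 1.16 CPM in the same order. The 5 leukocyte markers summed to 3.47 to 4.35, 2.25 to 2.73, 4.92 to 7.13 and 3.7 to 4.22 CPM. Within these lists the genes differed. Krt18 averaged 3.92 CPM in Sh2-Thap, 1.44 CPM in Ctrl-Thap and 0.0907 CPM in Sh2-DMSO libraries and was at 0 reads in Ctrl-DMSO libraries, and Krt8 was at 2.76, 1.03, 0.219 and 0.116 CPM in the same order. Vwf was at 5.23, 4.35, 0.373 and 0.28 CPM, Kdr at 1.48, 0.757, 0.507 and 0.116 CPM and Cdh5 at 0.935, 0.519, 0.102 and 0.00963 CPM. These 5 genes rose with thapsigargin in both cell populations (edgeR), and Cd68 made up most of the leukocyte sum, with 3.3, 2.05, 5.6 and 3.83 CPM. Epcam, Tie1, Cd3e and Adgre1 averaged below 0.1 CPM in every group. The part of these lists in the results was not tested. In bulk RNA, fewer cells of a kind and less RNA per cell cannot be told apart.

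With thapsigargin the balance of the determination factors turned from Myod1 to Myf5, and the knockdown shifted it the same way by a smaller step in both treatments. Under the knockdown Myog and Mef2c were low in both treatments, while Msc was high. Among the 9 factors, 5 were called with the knockdown under thapsigargin (3 rose, 2 fell), where 56.9% of all genes tested were called, 28.5% upward and 28.4% downward. In DMSO the knockdown gave 6 calls (2 rose, 4 fell), against 51.5% of all genes, 25.0% upward and 26.5% downward. Thapsigargin gave 6 calls in knockdown cells (4 rose, 2 fell), where 69.8% of all genes were called, 35.4% upward and 34.4% downward. In control cells it gave 6 calls (3 rose, 3 fell), against 74.7% of all genes, 37.7% upward and 37.0% downward. The thapsigargin effect differed between knockdown and control cells for 5 factors, each with the more positive change in knockdown cells, against 35.3% of all genes, 17.6% positive and 17.7% negative. Calls with a log2 change of at least 1 in size numbered 3 of 9 for the knockdown under thapsigargin (11.0% of all genes) and 3 of 9 in DMSO (8.91%), and 2 of 9 for thapsigargin in knockdown cells (19.6%) and 3 of 9 in control cells (26.3%). Libraries of the groups did not overlap for 5 factors for the knockdown under thapsigargin and 6 in DMSO, where 62.1% and 57.1% of all genes did not overlap. For thapsigargin they did not overlap for 6 factors in knockdown cells and 7 in control cells, against 71.4% and 77.1% of all genes. With 9 members these shares say little by themselves, and the account rests on the size and direction of each member's change. The median log2 change of the 9 was 0.26 for the knockdown under thapsigargin, -0.28 for the knockdown in DMSO, 0.15 for thapsigargin in knockdown cells, -0.07 for thapsigargin in control cells and 0.33 for the difference, beside medians of all genes within 0.02 of 0.

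**Figure D1:**
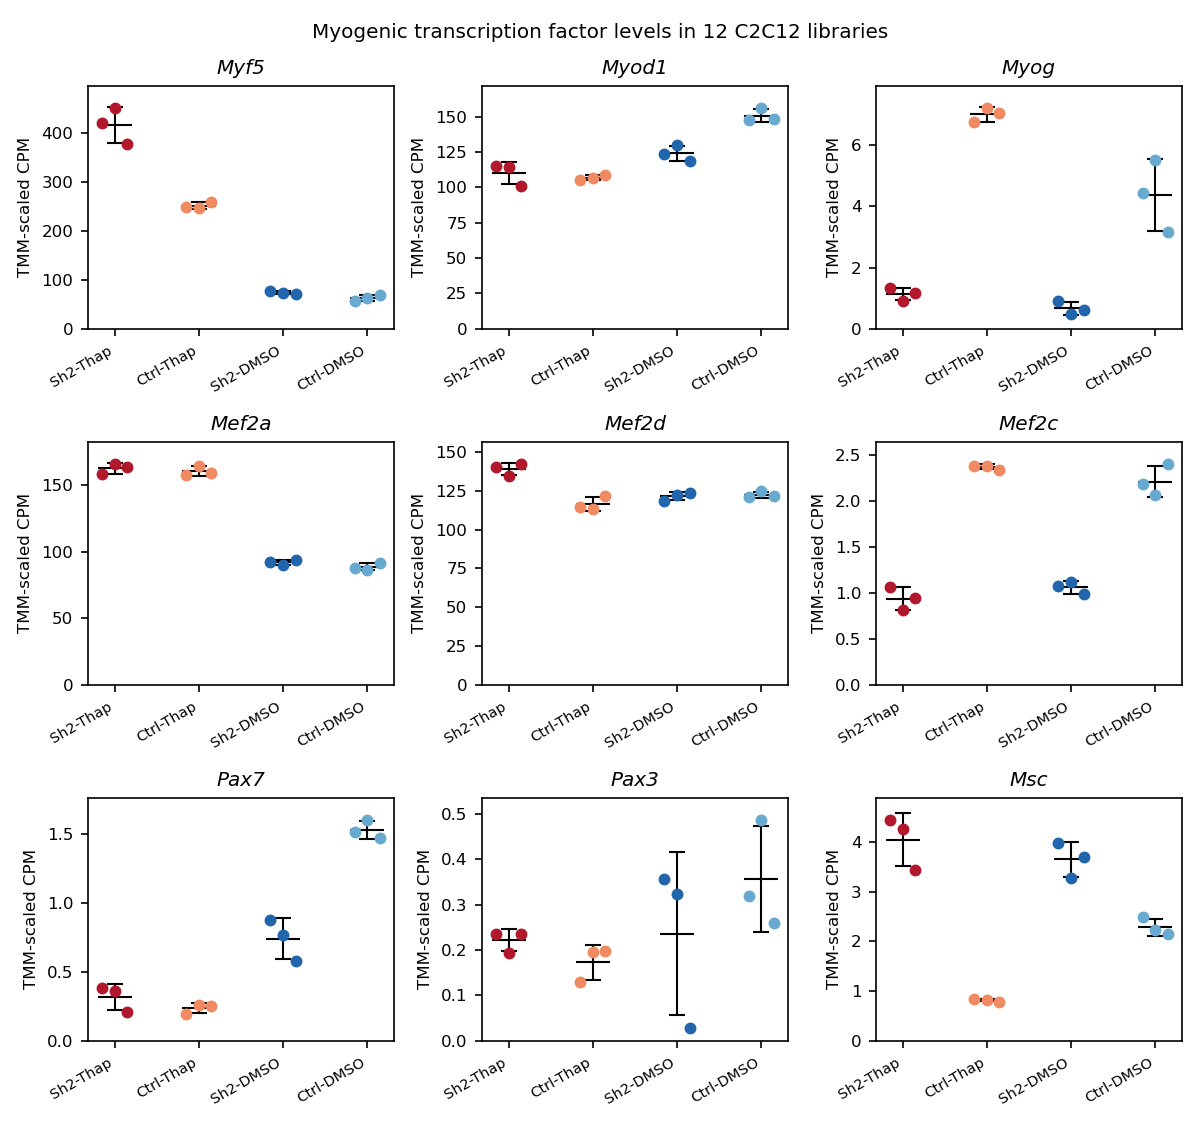
TMM-scaled counts per M gene reads (CPM, linear axes from 0) of each factor in the 12 libraries; points are single libraries, and the bar with whiskers is the mean ± SD of 3 libraries. Myf5 is high in both thapsigargin groups, Myog and Mef2c are low in both knockdown groups, and Msc is lowest in the Ctrl-Thap group.

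Myf5, at chromosome 10, 107482908 to 107486134 on the minus strand of GRCm38 (ENSMUSG00000000435), was the member with the largest response to thapsigargin among those that rose. It had 420.2, 451.1 and 377.9 CPM in Sh2-Thap libraries, against 248.3, 246.7 and 259.8 CPM in Ctrl-Thap libraries. In Sh2-DMSO libraries it had 76.5, 72.5 and 71.8 CPM, against 55.7, 61.6 and 68.1 CPM in Ctrl-DMSO libraries. All 6 thapsigargin libraries lay above all 6 DMSO libraries, and within each treatment every knockdown library lay above every control library. Thapsigargin raised Myf5 5.66-fold in knockdown cells (log2 change 2.5, SE 0.06, adjusted p = 9.67e-22, edgeR) and 4.07-fold in control cells (log2 change 2.03, SE 0.06, adjusted p = 3.7e-20). The knockdown raised it 1.65-fold under thapsigargin (log2 change 0.73, SE 0.06, adjusted p = 5.37e-11) and 1.19-fold in DMSO (log2 change 0.25, SE 0.06, adjusted p = 0.00173). The rise with thapsigargin was larger in knockdown cells by 0.47 on the log2 scale (SE 0.09, adjusted p = 8.96e-05).

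Myod1 (ENSMUSG00000009471), at chromosome 7, 46376474 to 46379099 on the plus strand, moved less, and fell wherever it passed the test. Its levels were 115.2, 114.1 and 101.1 CPM in Sh2-Thap libraries and 104.9, 106.7 and 108.8 CPM in Ctrl-Thap libraries. They were 123.5, 129.6 and 118.5 CPM in Sh2-DMSO libraries and 147.4, 156.0 and 148.6 CPM in Ctrl-DMSO libraries. The Ctrl-DMSO libraries stood above all others, and the 2 thapsigargin groups overlapped. Thapsigargin lowered Myod1 to 88.9% of the DMSO mean in knockdown cells (log2 change -0.17, SE 0.05, adjusted p = 0.00285, edgeR) and to 70.9% in control cells (log2 change -0.5, SE 0.05, adjusted p = 6.41e-11). The fall in knockdown cells was lost when libraries were scaled by their totals alone (-0.05, adjusted p = 0.343, in a range of 0.000785 to 0.343 over 22 alternatives). The knockdown lowered Myod1 in DMSO to 82.2% of the control mean (log2 change -0.28, SE 0.05, adjusted p = 1.08e-05). Under thapsigargin the knockdown effect was 0.04, adjusted p = 0.464, with an approximate 95% interval of -0.07 to 0.16, and with scaling by totals alone it was 0.18 (adjusted p = 0.00179). The thapsigargin effects differed by 0.33 (SE 0.07, adjusted p = 0.00031), being less negative in knockdown cells.

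The balance of these factors can be read within each library, where scaling between libraries plays no part. Levels between genes are compared as transcripts per M (TPM), counts divided by exon length. The ratio of Myod1 to Myf5 in TPM was 0.296 ± 0.0122 in Sh2-Thap libraries, 0.475 ± 0.00793 in Ctrl-Thap libraries, 1.88 ± 0.103 in Sh2-DMSO libraries and 2.75 ± 0.27 in Ctrl-DMSO libraries (SD, n = 3 each). Myod1 was thus the more abundant transcript in DMSO and Myf5 the more abundant with thapsigargin, in every library. No groups overlapped in this ratio in any of the 4 pairs compared, and each gave p = 0.1 in a two-sided exact permutation test, the smallest p that 3 libraries against 3 allow. The log2 difference of the ratio was -2.67 for thapsigargin in knockdown cells and -2.53 in control cells, and -0.68 for the knockdown under thapsigargin and -0.54 in DMSO. Of the summed TPM of Myf5, Myod1 and Myog, Myf5 made up 76.9 ± 0.775% in Sh2-Thap, 66.1 ± 0.416% in Ctrl-Thap, 34.5 ± 1.17% in Sh2-DMSO and 26.1 ± 2.11% in Ctrl-DMSO libraries. The sum itself was 967.2 ± 70.6 TPM in Sh2-Thap, 643.1 ± 21.9 TPM in Ctrl-Thap, 332.1 ± 4.14 TPM in Sh2-DMSO and 386.8 ± 13.2 TPM in Ctrl-DMSO libraries. Unlike the ratios and shares, this sum depends on scaling between libraries, and TPM carry no TMM scaling. Myod1, for example, was at 220.4 TPM in Sh2-Thap and 215.9 TPM in Sh2-DMSO libraries, but at 110.1 and 123.9 CPM. The fourth member of the MyoD family, Myf6, which acts in differentiated fibres, rose with thapsigargin in knockdown cells (log2 change 1.76, SE 0.41, adjusted p = 0.000275, edgeR) and in control cells (log2 change 1.5, SE 0.39, adjusted p = 0.000845). It averaged 0.763 ± 0.145 CPM in Sh2-Thap, 0.744 ± 0.0624 CPM in Ctrl-Thap, 0.223 ± 0.116 CPM in Sh2-DMSO and 0.26 ± 0.086 CPM in Ctrl-DMSO libraries, so it stayed a minor transcript.

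**Figure D2:**
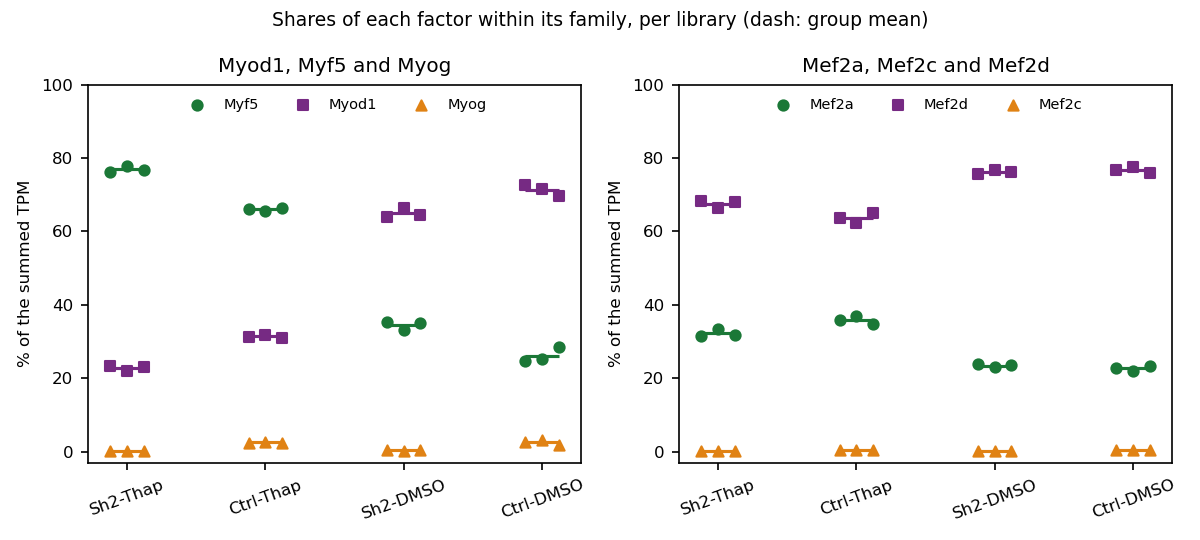
Share of each factor in the summed TPM (counts per exon length) of Myf5, Myod1 and Myog (left) and of Mef2a, Mef2d and Mef2c (right), in % per library; points are libraries and dashes are group means. Myf5 exceeds Myod1 in all thapsigargin libraries and Myod1 exceeds Myf5 in all DMSO libraries, while Mef2d is above Mef2a throughout.

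Myog and Mef2c are shown next with their start regions, because they shared the pattern of low levels in both knockdown groups. The sequences run from 250 bases before the RefSeq start to 10 bases after it (RefSeq, GRCm38.p6), with capitals at each match to the E-box CANNTG. The Myog window is chr1:134289754-134290013 on the plus strand and the first of 3 Mef2c windows is chr13:83503784-83504043 on the plus strand.
Myog: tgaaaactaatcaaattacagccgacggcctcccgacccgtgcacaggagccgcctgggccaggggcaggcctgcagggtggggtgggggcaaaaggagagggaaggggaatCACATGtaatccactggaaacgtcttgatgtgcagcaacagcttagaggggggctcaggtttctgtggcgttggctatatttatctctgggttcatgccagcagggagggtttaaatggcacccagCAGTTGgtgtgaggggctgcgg
Mef2c: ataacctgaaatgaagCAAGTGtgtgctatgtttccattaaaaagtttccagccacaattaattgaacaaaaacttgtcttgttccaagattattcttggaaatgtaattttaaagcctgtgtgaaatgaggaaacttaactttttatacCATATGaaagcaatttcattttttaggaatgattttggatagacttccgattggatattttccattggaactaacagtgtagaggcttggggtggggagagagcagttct
The Myog window held E-boxes CACATG at -138 to -133 and CAGTTG at -12 to -7, counted from the start. The Mef2c window held CAAGTG at -234 to -229 and CATATG at -100 to -95. Another of the Mef2c windows held CAGATG at -245 to -240 and the other none. An E-box was found in 67.7% of all 32851 windows of this length, searched on both strands, so such matches describe the sequence and no more. Neither a C/EBP-ATF response element (TGATGNAA) nor a C/EBP site (TTGCNNAA) was matched in any window of the 6 factors with one, against 3.59% and 9.85% of all windows. No window was given for Myod1, Pax3 and Msc.

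Myog (ENSMUSG00000026459; chromosome 1, 134289989 to 134292548, plus strand) had the largest change with the knockdown in DMSO among the 9. It had 1.32, 0.908 and 1.15 CPM in Sh2-Thap libraries, against 6.75, 7.22 and 7.05 CPM in Ctrl-Thap libraries. In DMSO it had 0.906, 0.472 and 0.607 CPM in Sh2 libraries, against 4.43, 5.53 and 3.15 CPM in Ctrl libraries. All knockdown libraries lay below all control libraries, whichever the treatment. The reads behind these levels numbered 112 in the Sh2-Thap group, 794 in the Ctrl-Thap group, 65 in the Sh2-DMSO group and 454 in the Ctrl-DMSO group. Myog was 6.19-fold lower with the knockdown under thapsigargin (log2 change -2.63, SE 0.19, adjusted p = 1.59e-13, edgeR) and 6.64-fold lower in DMSO (log2 change -2.73, SE 0.22, adjusted p = 6.31e-12). Thapsigargin raised it 1.72-fold in knockdown cells (log2 change 0.78, SE 0.28, adjusted p = 0.0139) and 1.61-fold in control cells (log2 change 0.68, SE 0.15, adjusted p = 0.000159). The call in knockdown cells was lost without Sh2-DMSO replicate 2 (0.59, adjusted p = 0.0825) or without Sh2-Thap replicate 1 (0.65, adjusted p = 0.0737), in a range of 0.00442 to 0.0825 over 22 alternatives. The difference between the thapsigargin effects did not pass (0.1, adjusted p = 0.841), with an approximate 95% interval of -0.62 to 0.82.

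Within the summed TPM of the determination and differentiation factors, Myog held 0.292 ± 0.0644% in Sh2-Thap, 2.56 ± 0.0949% in Ctrl-Thap, 0.433 ± 0.143% in Sh2-DMSO and 2.57 ± 0.672% in Ctrl-DMSO libraries. It was a small fraction in every group, and a smaller one in knockdown cells.

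Mef2c (ENSMUSG00000005583; chromosome 13, 83504034 to 83667080, plus strand), the MEF2 gene most tied to differentiation, was low in both knockdown groups, as Myog was. It had 1.06, 0.81 and 0.94 CPM in Sh2-Thap libraries and 2.38, 2.38 and 2.33 CPM in Ctrl-Thap libraries. The Sh2-DMSO libraries held 1.07, 1.12 and 0.983 CPM and the Ctrl-DMSO libraries 2.18, 2.06 and 2.4 CPM. Knockdown and control libraries did not overlap, and within each cell population the treatments did. Mef2c fell 2.51-fold with the knockdown under thapsigargin (log2 change -1.33, SE 0.2, adjusted p = 5.75e-07, edgeR) and 2.09-fold in DMSO (log2 change -1.07, SE 0.19, adjusted p = 2.56e-05). The thapsigargin effect was -0.17, adjusted p = 0.511 in knockdown cells (approximate 95% interval -0.69 to 0.35) and 0.1, adjusted p = 0.622 in control cells (-0.3 to 0.49), and the difference between them was -0.26, adjusted p = 0.506.

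The abundant MEF2 genes, Mef2a and Mef2d, followed other patterns. Mef2a (ENSMUSG00000030557; chromosome 7, 67231163 to 67372858, minus strand), expressed in many tissues, had 158.4, 166.0 and 164.0 CPM in Sh2-Thap libraries and 157.5, 164.9 and 159.2 CPM in Ctrl-Thap libraries. It had 92.3, 89.9 and 94.0 CPM in Sh2-DMSO libraries and 88.1, 86.6 and 91.6 CPM in Ctrl-DMSO libraries. The treatments were far apart and the cell populations overlapped within each treatment. Thapsigargin raised Mef2a 1.77-fold in knockdown cells (log2 change 0.82, SE 0.04, adjusted p = 1.83e-17, edgeR) and 1.81-fold in control cells (log2 change 0.85, SE 0.04, adjusted p = 3.18e-18). The difference between these rises was -0.03, with an approximate 95% interval of -0.17 to 0.11 (adjusted p = 0.729). The knockdown effect was 0.02, adjusted p = 0.709 under thapsigargin, or 0.15 (adjusted p = 0.00262) with scaling by library totals alone, and 0.05, adjusted p = 0.337 in DMSO.

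Mef2a and Myf5, the members with the largest rises with thapsigargin in both cell populations, are shown with their start regions. The Mef2a window is chr7:67372849-67373108 on the minus strand and the Myf5 window is chr10:107486125-107486384 on the minus strand (RefSeq, GRCm38.p6). Capitals mark a match to the MEF2 site, an A/T-rich motif searched on both strands.
Mef2a: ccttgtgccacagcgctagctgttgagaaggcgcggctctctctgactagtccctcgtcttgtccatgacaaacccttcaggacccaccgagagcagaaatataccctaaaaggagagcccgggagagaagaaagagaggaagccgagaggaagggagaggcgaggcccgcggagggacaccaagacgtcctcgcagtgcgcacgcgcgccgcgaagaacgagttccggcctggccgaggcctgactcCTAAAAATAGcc
Myf5: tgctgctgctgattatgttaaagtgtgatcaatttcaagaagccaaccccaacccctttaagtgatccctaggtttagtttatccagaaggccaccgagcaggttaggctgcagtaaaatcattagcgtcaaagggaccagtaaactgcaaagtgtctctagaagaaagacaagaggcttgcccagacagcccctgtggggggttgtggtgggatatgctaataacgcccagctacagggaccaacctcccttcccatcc
Mef2a carried the MEF2 site CTAAAAATAG from -2 to 8, across its start, a motif found in 2.98% of all windows. The Myf5 window held no match to any of the 4 motifs searched, nor did those of Pax7 and Mef2d.

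Mef2d (ENSMUSG00000001419; chromosome 3, 88142372 to 88172086, plus strand), which acts in proliferating myoblasts as well as in muscle, had 140.5, 134.6 and 142.2 CPM in Sh2-Thap libraries and 114.4, 113.2 and 121.4 CPM in Ctrl-Thap libraries. It had 118.7, 122.1 and 123.7 CPM in Sh2-DMSO libraries and 121.2, 124.8 and 121.3 CPM in Ctrl-DMSO libraries. The Sh2-Thap libraries alone stood above the rest. Mef2d rose with the knockdown under thapsigargin (log2 change 0.26, SE 0.04, adjusted p = 5.85e-06, edgeR) and with thapsigargin in knockdown cells (log2 change 0.2, SE 0.04, adjusted p = 0.000206). The knockdown effect in DMSO was -0.01, adjusted p = 0.86, and the thapsigargin effect in control cells was -0.07, adjusted p = 0.125. That last value passed as -0.11 without Ctrl-Thap replicate 3 (adjusted p = 0.0411) or with scaling by library totals alone (adjusted p = 0.0229), in a range of 0.0229 to 0.61 over 22 alternatives. The thapsigargin effects differed by 0.27 (SE 0.06, adjusted p = 0.000771). The ratio of Mef2d to Mef2a in TPM was 2.1 ± 0.0974 in Sh2-Thap, 1.78 ± 0.0939 in Ctrl-Thap, 3.24 ± 0.0885 in Sh2-DMSO and 3.39 ± 0.144 in Ctrl-DMSO libraries. Both genes overlap exons of a gene on the opposite strand, Mef2a with Lysmd4 over 302 bases and Mef2d with 1700113A16Rik over 531 bases. Those partners held 2804 and 121 reads over all libraries, and how strand was handled in the counting is not stated in the sources at hand.

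Pax7 (ENSMUSG00000028736; chromosome 4, 139737062 to 139833528, minus strand) was a rare transcript that fell with thapsigargin. It had 0.382, 0.357 and 0.206 CPM in Sh2-Thap libraries and 0.193, 0.26 and 0.253 CPM in Ctrl-Thap libraries. It had 0.873, 0.766 and 0.578 CPM in Sh2-DMSO libraries and 1.51, 1.6 and 1.47 CPM in Ctrl-DMSO libraries. These rest on 31, 27, 73 and 159 reads per group of 3 libraries in that order. The Ctrl-DMSO libraries were highest, the Sh2-DMSO libraries came next without overlap, and the 2 thapsigargin groups overlapped. Thapsigargin lowered Pax7 2.33-fold in knockdown cells (log2 change -1.22, SE 0.34, adjusted p = 0.00223, edgeR) and 6.33-fold in control cells (log2 change -2.66, SE 0.32, adjusted p = 4.77e-09). The knockdown lowered it in DMSO (log2 change -1.05, SE 0.27, adjusted p = 0.00146), while under thapsigargin the effect was 0.39, adjusted p = 0.435, with a wide approximate 95% interval of -0.56 to 1.34. The thapsigargin effects differed by 1.44 (adjusted p = 0.0215). That call was lost without Sh2-DMSO replicate 3 (1.29, adjusted p = 0.0523), without Sh2-Thap replicate 1 (1.27, adjusted p = 0.0791) or without Sh2-Thap replicate 2 (1.35, adjusted p = 0.0549), in a range of 0.00851 to 0.0791 over 20 alternatives.

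Pax3 (ENSMUSG00000004872; chromosome 1, 78101267 to 78197134, minus strand), which marks embryonic muscle progenitors, was close to the limit of detection. It had 0.235, 0.194 and 0.235 CPM in Sh2-Thap libraries and 0.129, 0.195 and 0.197 CPM in Ctrl-Thap libraries. In Sh2-DMSO libraries it had 0.356, 0.324 and 0.0289 CPM, and in Ctrl-DMSO libraries 0.32, 0.487 and 0.26 CPM. The groups held 22, 20, 23 and 37 reads in the same order, and Sh2-DMSO replicate 3 held 1 read. No comparison was called by edgeR. The nearest was thapsigargin in control cells, with a log2 change of -1.0, adjusted p = 0.0851 and an approximate 95% interval of -2.21 to 0.21, so a large fall and no change both lie within it.

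Msc (ENSMUSG00000025930; chromosome 1, 14753346 to 14755992, minus strand), the bHLH repressor, ran opposite to Myog with the knockdown. It had 4.44, 4.25 and 3.44 CPM in Sh2-Thap libraries, against 0.836, 0.824 and 0.787 CPM in Ctrl-Thap libraries. In DMSO it had 3.98, 3.27 and 3.7 CPM in Sh2 libraries, against 2.48, 2.23 and 2.14 CPM in Ctrl libraries. Every knockdown library lay above every control library, and the Ctrl-Thap libraries were the lowest. Reads numbered 399 in the Sh2-Thap group, 92 in the Ctrl-Thap group, 362 in the Sh2-DMSO group and 237 in the Ctrl-DMSO group. The knockdown raised Msc 4.93-fold under thapsigargin (log2 change 2.3, SE 0.18, adjusted p = 7.07e-13, edgeR) and 1.6-fold in DMSO (log2 change 0.68, SE 0.16, adjusted p = 0.000497). The thapsigargin effect in knockdown cells was 0.15, adjusted p = 0.377 (approximate 95% interval -0.19 to 0.48), while in control cells Msc fell 2.79-fold (log2 change -1.48, SE 0.19, adjusted p = 3.05e-08). The thapsigargin effects differed by 1.63 (SE 0.24, adjusted p = 2.14e-06), the largest difference among the 9. An antisense gene, Gm9947, overlaps 539 bases of Msc exons and held 140 reads over all libraries, so some reads of either cannot be assigned with certainty.

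**Figure D3:**
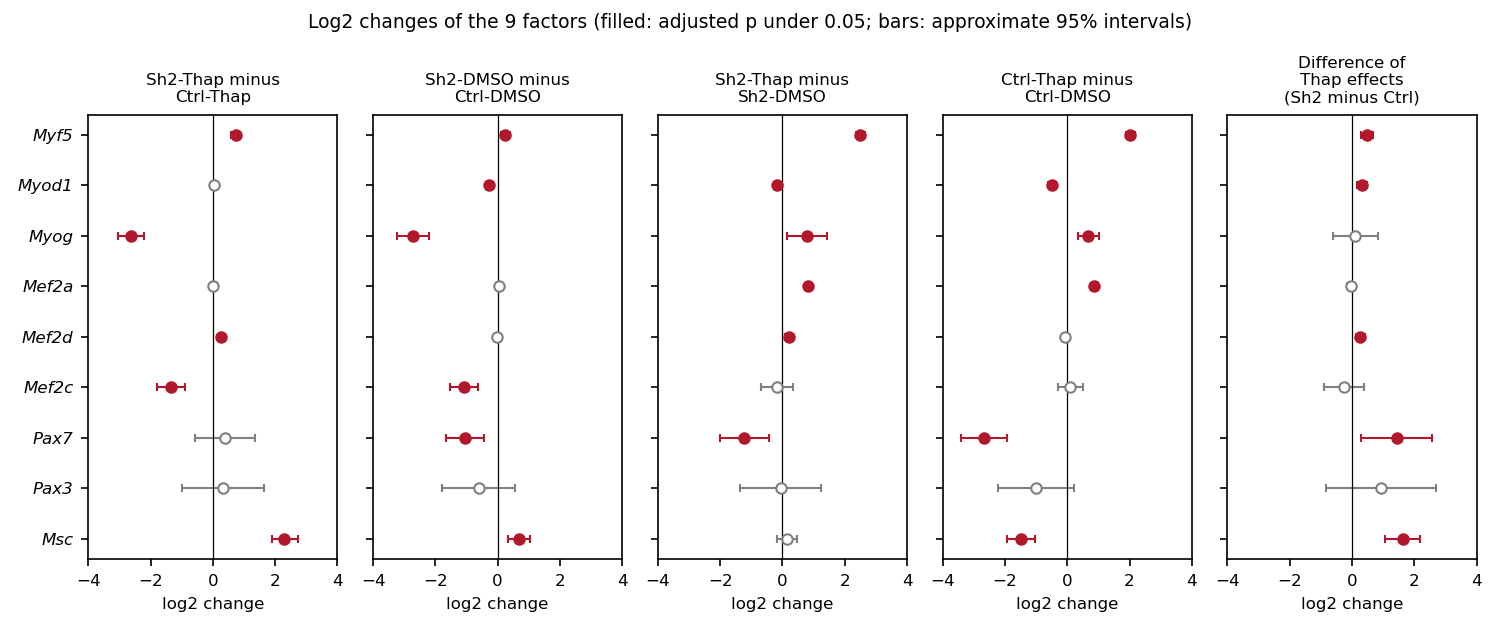
Log2 changes of the 9 factors in the 5 comparisons (edgeR); filled points passed an adjusted p under 0.05, open points did not, and bars are approximate 95% intervals. Myog and Mef2c lie left of 0 in both knockdown comparisons, Myf5 lies right of 0 in all comparisons, and the 5 filled points of the last panel are all right of 0.

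The order of the factors by level per length changed between groups. In Sh2-Thap libraries Myf5 led at 744.1 ± 57.1 TPM before Myod1 at 220.4 ± 15.7 TPM, and Msc at 5.91 ± 0.783 TPM stood above Myog at 2.81 ± 0.57 TPM. In Ctrl-Thap libraries Myf5 at 424.9 ± 16.5 TPM also led Myod1 at 201.8 ± 5.46 TPM, but Myog at 16.5 ± 0.567 TPM stood above Msc at 1.13 ± 0.0259 TPM. Msc was likewise above Myog in Sh2-DMSO libraries, at 4.66 ± 0.524 and 1.44 ± 0.489 TPM. The libraries of Mef2c, Pax7 and Pax3 overlapped as neighbours in the Sh2-Thap group, at 0.222 ± 0.0335, 0.2 ± 0.0606 and 0.134 ± 0.0165 TPM. In Ctrl-DMSO libraries the order ran Myod1 at 275.8 ± 5.81 TPM, Myf5 at 101.1 ± 10.8, Mef2d at 69.7 ± 0.522, Mef2a at 20.6 ± 0.846, Myog at 9.93 ± 2.59, Msc at 3.05 ± 0.229, Pax7 at 0.89 ± 0.0273, Mef2c at 0.481 ± 0.0429 and Pax3 at 0.195 ± 0.062 TPM, with no overlap between neighbours. Counted per median transcript length the order changed, since the exon union of the Mef2 genes is longer than their typical transcript. Mef2d then stood above Myod1 in Sh2-Thap (90.6 and 68.1 TPM) and Ctrl-Thap libraries (69.8 and 60.8 TPM), and overlapped it in Sh2-DMSO libraries (72.1 and 69.8 TPM). Mef2a overlapped Myod1 in Sh2-Thap libraries (70.2 TPM) and lay just above it in Ctrl-Thap libraries (63.7 TPM). Mef2c passed Msc in Ctrl-Thap libraries (2.12 and 0.879 TPM) and Myog in Sh2-DMSO libraries (0.935 and 0.464 TPM). The place of Myf5 above Myod1 with thapsigargin and below it in DMSO did not change with the length used.

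Across the 12 libraries the factors fell into pairs, given as a description only, since the libraries of a group share their treatment. Pearson's r of log2(CPM + 0.5) was 0.98 for Myf5 with Mef2a and 0.98 for Myod1 with Pax7, and the first of these pairs ran opposite to the other (-0.81 for Myf5 with Myod1). Myog with Mef2c gave 0.93, and Msc gave -0.88 with Myog and -0.86 with Mef2c. Among 12297 genes with a mean of at least 1 CPM, the profiles most like Myog over the 12 libraries were those of Nxf7 (r = 0.99), Ensa (0.989) and Ifnar1 (0.986). Those most like Mef2c were Lamb2 (0.988), Dram1 (0.987) and Adgra2 (0.985). Myf5 was followed most closely by Cttnbp2nl (0.997), Snhg1 (0.996) and 1810032O08Rik (0.996), and Myod1 by Fbxo32 (0.973), Lima1 (0.967) and Klhl30 (0.967). For Msc they were Snx24 (0.991), Asap1 (0.985) and Rasa3 (0.984). As an example of the shared shape, Nxf7 averaged 1.86 CPM in Sh2-Thap, 16.1 CPM in Ctrl-Thap, 0.681 CPM in Sh2-DMSO and 10.5 CPM in Ctrl-DMSO libraries.

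The E proteins, which the bHLH activators need as partners, were mostly lower in knockdown cells. Under thapsigargin the knockdown lowered Tcf4 (log2 change -0.94, SE 0.06, adjusted p = 6.71e-16, edgeR) and Tcf12 (log2 change -0.43, SE 0.05, adjusted p = 4.29e-09), and Tcf3 was at -0.01, adjusted p = 0.806, or at 0.12 (adjusted p = 0.0198) with scaling by library totals alone. In DMSO all 3 fell, Tcf4 (log2 change -0.35, SE 0.06, adjusted p = 3.01e-06), Tcf12 (log2 change -0.31, SE 0.05, adjusted p = 3.51e-06) and Tcf3 (log2 change -0.23, SE 0.04, adjusted p = 5.57e-05). Over all genes tested, 28.4% fell with the knockdown under thapsigargin and 26.5% in DMSO, and 3 genes are too few to set against these shares. Thapsigargin lowered Tcf3 in knockdown cells (log2 change -0.45, SE 0.05, adjusted p = 1.24e-10) and in control cells (log2 change -0.67, SE 0.04, adjusted p = 4.97e-15), and raised Tcf12 in both (log2 change 0.28, SE 0.05, adjusted p = 8.82e-06 in knockdown cells, and log2 change 0.4, SE 0.05, adjusted p = 8.53e-09 in control cells). Tcf4 fell with thapsigargin in knockdown cells (log2 change -0.35, SE 0.06, adjusted p = 1.62e-06) but rose in control cells (log2 change 0.24, SE 0.05, adjusted p = 0.000216), and the difference between these effects was -0.59 (adjusted p = 2.48e-07). Tcf12, as an example of their level, stood at 40.0 ± 1.0 TPM in Sh2-Thap, 50.8 ± 0.878 TPM in Ctrl-Thap, 28.8 ± 2.71 TPM in Sh2-DMSO and 37.4 ± 2.8 TPM in Ctrl-DMSO libraries.

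Inhibitors of bHLH or MEF2 activity, such as the Id proteins, which capture E proteins, and the class II histone deacetylases, which bind MEF2, moved both ways. Of 18 tested out of 20, 4 rose, 9 fell and 5 did not pass with the knockdown under thapsigargin, and 3 rose, 8 fell and 7 did not pass in DMSO. Of all genes, 28.5% rose and 28.4% fell with the knockdown under thapsigargin, and 25.0% and 26.5% in DMSO. Snai2, a zinc finger repressor that competes for E-boxes, fell with the knockdown in both treatments (-0.97 under thapsigargin and -1.02 in DMSO, adjusted p = 1.21e-18 and 2.6e-17). Hdac4 fell under thapsigargin (log2 change -0.91, SE 0.06, adjusted p = 5.17e-14) and was at -0.03, adjusted p = 0.744 in DMSO. Hdac9 fell in DMSO (log2 change -0.67, SE 0.11, adjusted p = 3.07e-06) and also under thapsigargin (log2 change -0.31, SE 0.09, adjusted p = 0.00526). Bhlhe41 (log2 change 0.72, SE 0.06, adjusted p = 7.16e-13) and Zeb1 (log2 change 0.35, SE 0.05, adjusted p = 2.64e-07) rose under thapsigargin. With thapsigargin, 8 rose, 6 fell and 4 did not pass in knockdown cells and 7 rose, 8 fell and 3 did not pass in control cells, where calls over all genes were 35.4% up and 34.4% down in knockdown cells and 37.7% up and 37.0% down in control cells. Snai2 had the largest named rise in both, at 96.3 ± 0.437 CPM in Sh2-Thap and 27.0 ± 1.43 CPM in Sh2-DMSO libraries (log2 change 1.83, SE 0.05, adjusted p = 5.28e-25), and at 189.1 ± 7.45 CPM in Ctrl-Thap and 54.9 ± 0.906 CPM in Ctrl-DMSO libraries (log2 change 1.78, SE 0.05, adjusted p = 5.51e-26). Id1 fell with thapsigargin in knockdown cells (log2 change -1.67, SE 0.05, adjusted p = 1.37e-24) and in control cells (log2 change -0.96, SE 0.05, adjusted p = 7.91e-19).

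Among coactivators and activating kinases of MyoD or MEF2, 14 of 15 were tested. With the knockdown, 5 rose, 3 fell and 6 did not pass under thapsigargin, and 5 rose, 4 fell and 5 did not pass in DMSO, beside 56.9% of all genes called under thapsigargin and 51.5% in DMSO. Vgll2, a TEAD cofactor expressed in muscle, fell most, to 4.64 ± 0.57 CPM in Sh2-Thap libraries against 24.8 ± 3.98 CPM in Ctrl-Thap libraries (log2 change -2.41, SE 0.12, adjusted p = 3.82e-16, edgeR). In DMSO it was at 1.84 ± 0.476 CPM in Sh2 libraries against 9.15 ± 0.723 CPM in Ctrl libraries (log2 change -2.31, SE 0.15, adjusted p = 5.83e-13). Its relative Vgll3 rose (log2 change 0.79, SE 0.05, adjusted p = 5.43e-15, and log2 change 0.26, SE 0.05, adjusted p = 7.82e-05 in DMSO), as did the arginine methyltransferase gene Prmt5 in DMSO (log2 change 0.47, SE 0.04, adjusted p = 8.8e-11). With thapsigargin, 7 rose, 3 fell and 4 did not pass in knockdown cells, and 7 rose, 5 fell and 2 did not pass in control cells, beside 69.8% and 74.7% of all genes called. Mapk14, the p38 kinase that activates MEF2, fell in both (log2 change -0.41, SE 0.05, adjusted p = 9.76e-10 in knockdown cells and log2 change -0.75, SE 0.05, adjusted p = 5.36e-16 in control cells).

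Upstream regulators of the programme moved both ways. Of 17 tested out of 20, 6 rose, 6 fell and 5 did not pass with the knockdown under thapsigargin, and 3 rose, 9 fell and 5 did not pass in DMSO. The shares of all genes were 28.5% up and 28.4% down under thapsigargin and 25.0% up and 26.5% down in DMSO. Meox1 fell with the knockdown under thapsigargin (log2 change -3.15, SE 0.33, adjusted p = 7.67e-10, edgeR) and in DMSO (log2 change -2.27, SE 0.39, adjusted p = 1.16e-05). Tead4, a TEAD factor of muscle genes, rose in both treatments (log2 change 0.62, SE 0.08, adjusted p = 4.6e-08, and log2 change 1.17, SE 0.08, adjusted p = 7.35e-14 in DMSO). With thapsigargin, 7 rose, 7 fell and 3 did not pass in knockdown cells, and 5 rose, 9 fell and 3 did not pass in control cells, against 35.4% up and 34.4% down, and 37.7% up and 37.0% down, over all genes. Klf5 rose (log2 change 1.47, SE 0.05, adjusted p = 1.15e-22 in knockdown cells and log2 change 1.4, SE 0.05, adjusted p = 2.79e-22 in control cells) and Pitx3 fell (log2 change -1.73, SE 0.35, adjusted p = 5.13e-05, and log2 change -2.56, SE 0.32, adjusted p = 9.32e-09). The thapsigargin effect was more positive in knockdown cells for 9 of the 17 and more negative for 2, with 6 not passing, against 17.6% and 17.7% of all genes.

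Satellite cell and progenitor genes, the company of Pax7, mostly fell with thapsigargin, as Pax7 did. Of 18 tested out of 20, 1 rose, 14 fell and 3 did not pass in knockdown cells, with a median log2 change of -0.48, and 2 rose, 14 fell and 2 did not pass in control cells, with a median of -0.57. Of all genes, 35.4% rose and 34.4% fell with thapsigargin in knockdown cells, and 37.7% and 37.0% in control cells. The chemokine receptor gene Cxcr4 fell in both (log2 change -1.51, SE 0.07, adjusted p = 2.19e-18 in knockdown cells and log2 change -2.43, SE 0.08, adjusted p = 4.46e-24 in control cells, edgeR), as did Notch3 in knockdown cells (log2 change -1.63, SE 0.13, adjusted p = 6.59e-07) and the syndecan gene Sdc4 in control cells (log2 change -1.47, SE 0.05, adjusted p = 4.42e-24). Spry1, a brake on FGF signalling linked to satellite cell quiescence, rose in both (log2 change 1.14, SE 0.21, adjusted p = 1.71e-05 in knockdown cells, and log2 change 2.39, SE 0.18, adjusted p = 1.25e-13 in control cells). With the knockdown, 6 rose, 8 fell and 4 did not pass under thapsigargin, and 6 rose, 8 fell and 4 did not pass in DMSO, while 28.5% of all genes rose and 28.4% fell under thapsigargin, and 25.0% and 26.5% in DMSO. The Notch target gene Heyl had the largest named fall in both treatments (log2 change -1.92, SE 0.29, adjusted p = 7.97e-07 under thapsigargin, and log2 change -3.23, SE 0.3, adjusted p = 8.77e-11 in DMSO), followed by the receptor gene Notch3 (log2 change -1.53, SE 0.13, adjusted p = 1.76e-06, and log2 change -1.1, SE 0.12, adjusted p = 1.51e-05 in DMSO).

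Early targets of MyoD and myogenin, mostly sarcomere and synapse genes, were more often lower than higher with the knockdown. Of 39 tested out of 47, 12 rose, 19 fell and 8 did not pass under thapsigargin, with a median log2 change of -0.37, and 10 rose, 18 fell and 11 did not pass in DMSO, with a median of -0.37. Upward and downward calls made up 28.5% and 28.4% of all genes under thapsigargin, and 25.0% and 26.5% in DMSO. Tnnt1, slow troponin T, fell in both treatments (log2 change -3.12, SE 0.25, adjusted p = 9.72e-13 under thapsigargin and log2 change -2.91, SE 0.2, adjusted p = 5.96e-14 in DMSO, edgeR), as did Igfbp5 (log2 change -4.52, SE 0.22, adjusted p = 1.23e-07 and log2 change -2.79, SE 0.2, adjusted p = 3.19e-06). Acta1, skeletal actin, rose instead, to 46.5 ± 6.32 CPM in Sh2-Thap against 5.0 ± 0.299 CPM in Ctrl-Thap libraries (log2 change 3.22, SE 0.18, adjusted p = 8.24e-08), and to 85.6 ± 16.1 CPM in Sh2-DMSO against 7.16 ± 1.1 CPM in Ctrl-DMSO libraries (log2 change 3.58, SE 0.17, adjusted p = 2.96e-08). The list did not move as a block with Myog. With thapsigargin, 8 rose, 18 fell and 13 did not pass in knockdown cells, and 7 rose, 21 fell and 11 did not pass in control cells, beside 35.4% up and 34.4% down, and 37.7% up and 37.0% down, over all genes. Cardiac actin, Actc1, fell (log2 change -1.69, SE 0.19, adjusted p = 2.56e-09 in knockdown cells and log2 change -2.09, SE 0.23, adjusted p = 1.06e-09 in control cells) while Myom1, which encodes a protein of the sarcomeric M-band, rose (log2 change 1.64, SE 0.19, adjusted p = 5.08e-09 and log2 change 1.36, SE 0.18, adjusted p = 3.69e-08). The thapsigargin effect was more positive in knockdown cells for 3 of the 39 and more negative for 6, with 30 not passing, beside 17.6% and 17.7% of all genes.

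**Figure D4:**
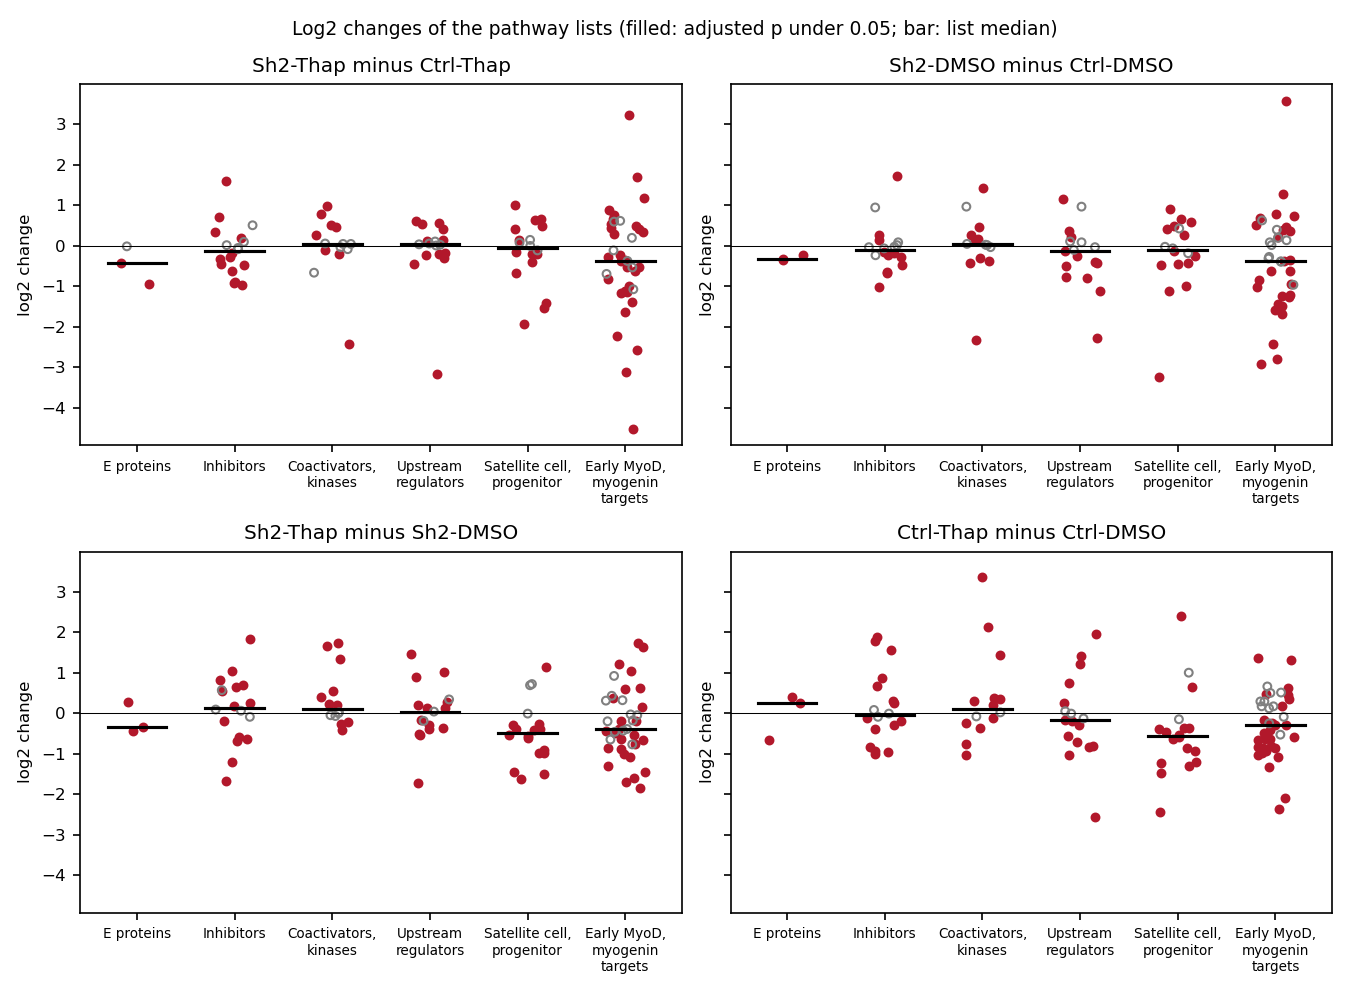
Log2 changes of the tested genes of 6 pathway lists in the 4 pairwise comparisons (edgeR); filled points passed an adjusted p under 0.05, open points did not, and black bars are list medians. The satellite cell list lies mostly below 0 in both thapsigargin panels, and the early target list spreads widely in the knockdown panels, with Acta1 as its highest point.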

How the data were processed

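Per the submitters' processing notes, reads were trimmed with Trim Galore and aligned with STAR 2.5.3a, and bedtools 2.31.0, DESeq2 and the builds mm10 and hg38 are named. Poly(A) RNA was selected, per the labels' protocols. The deposited files hold raw counts per gene. The counter, its annotation release and its strand setting are not given in the sources used here. Entries that name no gene held 13.32% to 14.61% of reads and were left out. Gene names came from GENCODE vM21 (GRCm38), which matched 53620 of 53801 identifiers and left 181 unmatched.

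The 12 libraries (29.4 to 47.7 M gene reads) were fitted together, with no pairing between groups in the model, by edgeR 4.0.16 (TMM, filterByExpr by group, robust quasi-likelihood fits, 8 residual degrees of freedom, R 4.3.3). This filter passed 15828 genes and removed 37973, and the common biological coefficient of variation was 4.67%. An SE is the absolute log2 change over the square root of F, hence approximate, and intervals use it with the t quantile of those degrees of freedom. TPM used the length of the union of exons and no TMM scaling, so changes in TPM and in CPM between groups can differ. Replicates differed by more than counting noise (chi-square per gene 2.41 to 8.98).

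The members and the gene lists were chosen with earlier results of these data known, and no list was tested as a set. Named list genes were the 2 largest called rises and falls per list and comparison, for which the higher group averaged 1 CPM or more and the libraries did not overlap, a selection of which is printed (the values of 1 list gene are not reported here), plus Myf6 and the E proteins; the 3 genes most like each of 5 members by correlation; and Cebpg. On simulated data for the knockdown in DMSO, 8 of 15052 unchanged genes were called, with 97 of 100 genes recovered at a log2 change of 1 and 76 of 100 at 0.5. The simulation changed only these recovered sets, all averaging at least 1 CPM, and drew counts from the fitted trend of the spread. In the real data 8154 of 15828 genes were called. The simulated counts therefore do not give the error or recovery of the real calls, nor of rare members such as Pax7 and Pax3. Alternatives were DESeq2 1.42.0, limma-voom (limma 3.58.1), other scalings and filters, a non-robust fit, only the groups compared, a replicate block and leaving out each library. Promoter windows came from RefSeq (GRCm38.p6). Python 3.11.15, pandas 2.3.3, numpy 2.4.6 and matplotlib 3.10.9 were used.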

Additional observations from a re-analysis of the deposited data

Results flagged for a closer look

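For 5 of the 9 factors the thapsigargin effect differed between knockdown and control cells in the edgeR test of the difference itself. Over all genes tested, 35.3% were called in that test, 17.6% positive and 17.7% negative, so the count alone says little. Msc had the largest difference, 1.63 on the log2 scale, with no detectable change with thapsigargin in knockdown cells and a fall in control cells. Pax7 differed by 1.44, with a smaller fall in knockdown cells, on few reads and with the call lost without any of 3 single libraries. Myf5 differed by 0.47, with the larger rise in knockdown cells, and Myod1 by 0.33, with the smaller fall there. Mef2d differed by 0.27, with a rise in knockdown cells and no call in control cells. The 5 values come from the same 12 libraries and are not independent of each other.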

How the results depend on the processing

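Of 967 values of the 9 factors under the alternatives, 957 stayed on the same side of the threshold, 6 lost a call and 4 gained one. No called value of the 9 changed sign, but some that did not pass did, such as Pax3 for thapsigargin in knockdown cells (-0.61 to 0.46) and Myog for the difference of effects (-0.12 to 0.38). Of 2666 values of the other named genes, 2628 stayed on the same side, 36 lost a call, 1 gained one and 1 reversed. The reversal was Tcf3 with the knockdown under thapsigargin, at 0.12 (adjusted p = 0.0198) with scaling by library totals alone; its value under TMM did not pass. That scaling moved the median of all genes by 0.13 for the knockdown under thapsigargin, 0.12 for thapsigargin in knockdown cells and 0.16 for the difference of effects. The cause was not tested. With this scaling, 66.6% of called genes were higher for the knockdown under thapsigargin, against 50.1% with TMM, and 75.5% for the difference, against 49.9%. It also ended the calls of Smarcd3 with the knockdown under thapsigargin, Kat2b with thapsigargin in knockdown cells, and Prmt5 and Srf in the difference. Leaving out each library, genes called ranged over 8314 to 9219 for the knockdown under thapsigargin, 7337 to 8283 in DMSO, 10579 to 11268 for thapsigargin in knockdown cells, 11526 to 12129 in control cells and 5062 to 5448 for the difference. Factors called ranged over 5 to 5, 6 to 6, 5 to 6, 6 to 7 and 4 to 5 in the same order. Calls in the difference of Heyl, Id4 and Klhl41, with the knockdown in DMSO of Bhlhe41 and Pitx3, and with the knockdown under thapsigargin of Prkd1 ended in at least 2 alternatives each. Levels per length moved when median transcript length replaced the exon union: in Ctrl-DMSO libraries Myod1 was at 87.7, Mef2d at 75.1, Mef2a at 36.0, Myf5 at 32.1, Myog at 3.16, Msc at 2.51, Mef2c at 2.03, Pax7 at 0.438 and Pax3 at 0.118 TPM, with Mef2a and Myf5, and Myog and Msc, then overlapping. Same-numbered libraries of different groups did not deviate together over all genes (correlations -0.03 to 0.056). This check gave no sign of pairing by replicate number, but it could miss a batch that moved only some genes. With a replicate block 9109, 8279, 11117, 11854 and 5770 genes were called in the 5 comparisons in that order. Without it they numbered 9007, 8154, 11051, 11830 and 5594. Depth limits Pax3, with at most 17 reads per library, and Pax7, with at most 56.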

Other observations

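Markers of osteoblasts, adipocytes and fibroblasts also differed between the groups. The 5 osteoblast markers summed to 112.2 to 118.8 CPM in Sh2-Thap, 94.4 to 97.2 CPM in Ctrl-Thap, 90.6 to 93.3 CPM in Sh2-DMSO and 67.1 to 72.5 CPM in Ctrl-DMSO libraries, with Ibsp below 0.1 CPM in all groups. The 5 adipocyte markers summed to 119.5 to 125.1 CPM in Sh2-Thap, 177.9 to 183.7 CPM in Ctrl-Thap, 83.8 to 88.3 CPM in Sh2-DMSO and 147.0 to 153.4 CPM in Ctrl-DMSO libraries, with Plin1 below 0.1 CPM in all groups. The 5 fibroblast markers summed to 137.8 to 168.0 CPM in Sh2-Thap, 118.5 to 138.1 CPM in Ctrl-Thap, 329.7 to 351.2 CPM in Sh2-DMSO and 371.8 to 376.5 CPM in Ctrl-DMSO libraries, with Thy1 and Lum below 0.1 CPM in all groups. Members of a list did not move together. Among the adipocyte markers Lpl was at 27.4, 125.7, 49.2 and 130.3 CPM in Sh2-Thap, Ctrl-Thap, Sh2-DMSO and Ctrl-DMSO libraries, and fell with the knockdown under thapsigargin (log2 change -2.2, edgeR) and in DMSO (-1.41). Pparg was at 94.8, 53.9, 35.7 and 17.9 CPM in the same order and rose with it (0.81 under thapsigargin and 0.99 in DMSO), and Fabp4 was not called for the knockdown. Runx2 held most of the osteoblast sum, at 113.9, 93.5, 90.1 and 68.6 CPM, and Col1a1 most of the fibroblast sum, at 141.3, 113.7, 316.5 and 314.8 CPM. The part of any of these in the levels of the myogenic factors was not tested.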
